A study of Mus musculus with 8 samples.

Results

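The expression of 40 genes of DNA replication and cell division was analyzed in the distal colon of WT and *Hsf1* null mice, before and after AOM-DSS treatment. The genes were chosen by name, as widely used markers of S phase (18 genes) and of mitosis (22 genes), and all 40 were among the 15859 genes of the deposited counts. Each of the 40 also passed the filter on low counts, by which 14371 genes were tested. The S phase genes were *Pcna*, *Mcm2*, *Mcm3*, *Mcm4*, *Mcm5*, *Mcm6*, *Mcm7*, *Rrm1*, *Rrm2*, *Tyms*, *Pola1*, *Prim1*, *Fen1*, *Gins2*, *Cdc6*, *Cdt1*, *Ccne1* and *Ccne2*. The mitosis genes were *Mki67*, *Top2a*, *Ccna2*, *Ccnb1*, *Ccnb2*, *Cdk1*, *Cdc20*, *Aurka*, *Aurkb*, *Plk1*, *Bub1*, *Bub1b*, *Ttk*, *Cenpa*, *Cenpe*, *Kif11*, *Kif20a*, *Birc5*, *Ube2c*, *Tpx2*, *Prc1* and *Foxm1*.

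RNA was sequenced from 8 male mice on a mixed BALB/c and 129SvEV background, with 2 mice in each of 4 groups. WT day 0 and *Hsf1* null day 0 mice received no treatment. WT day 15 and *Hsf1* null day 15 mice received 1 intraperitoneal injection of the carcinogen azoxymethane (AOM, 10 mg/kg) at 8 weeks, and from day 7 had 1.5% dextran sulfate sodium (DSS), an irritant that damages the gut lining, in the drinking water for 5 days. The null allele is constitutive, so that epithelium and stroma carried it alike. The labels give an age of 10 weeks for all mice, and the design text gives 9.5 weeks. The day 15 mice were collected 3 days after DSS by the study's methods, whereas the protocol in the labels ends directly after DSS. Bulk RNA of the colon wall was measured, in which fewer dividing cells and less RNA of these genes per cell cannot be told apart.

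In the colon, cells divide in the lower part of the crypts, where stem cells and their rapidly dividing daughters renew the epithelium, and divisions increase when a wounded epithelium is rebuilt. Immune and stromal cells of an inflamed colon can divide too. Before S phase, CDC6 and CDT1 load the MCM2 to MCM7 helicase onto DNA, cyclin E and GINS help to fire the origins, and PCNA, primase and FEN1 serve the copying of the strands, for which ribonucleotide reductase and thymidylate synthase make the nucleotides. Genes of S phase are switched on mainly by E2F factors. Genes of G2 and mitosis are held back in resting cells by the DREAM complex and switched on late in the cycle by B-MYB and FOXM1, through an element called CHR that often lies next to CCAAT boxes bound by NF-Y. HSF1 itself binds heat shock elements, in which GAA and TTC repeats face each other.

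Promoters are shown first, because the S phase and the mitosis genes were described apart and are known for different promoter elements. A RefSeq promoter (build GRCm38.p6, 250 bases before and 50 bases after the start of the gene) was at hand for 32 of the 40 genes, and none for *Mcm4*, *Gins2*, *Ccne2*, *Ccna2*, *Aurkb*, *Kif20a*, *Tpx2* and *Foxm1*. Both strands were searched for the letters TTTGAA or TTCGAA (CHR), CCAAT, TTTNNCGC (E2F) and GAANNTTC (heat shock element). The 160 bases before the start are given for 4 mitosis genes and 4 S phase genes, 5′ to 3′ on the strand of the gene, with every match in capitals. *Cdk1*, *Cdc20* and *Birc5* rose in both genotypes with treatment and *Mki67* passed the test in none, *Mcm5* and *Fen1* rose in both genotypes, *Rrm2* rose in *Hsf1* null mice, and *Mcm6* did not pass the test in either. The positions are chr10:69352913-69353072 (minus strand) for *Cdk1*, chr4:118437344-118437503 (minus) for *Cdc20*, chr11:117849077-117849236 (plus) for *Birc5*, chr7:135716380-135716539 (minus) for *Mki67*, chr8:75109349-75109508 (plus) for *Mcm5*, chr1:128359706-128359865 (minus) for *Mcm6*, chr19:10204394-10204553 (minus) for *Fen1* and chr12:24708094-24708253 (plus) for *Rrm2*.
Cdk1: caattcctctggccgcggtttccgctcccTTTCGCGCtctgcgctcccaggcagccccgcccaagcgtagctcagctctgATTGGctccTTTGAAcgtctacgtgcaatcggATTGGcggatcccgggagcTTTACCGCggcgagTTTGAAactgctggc
Cdc20: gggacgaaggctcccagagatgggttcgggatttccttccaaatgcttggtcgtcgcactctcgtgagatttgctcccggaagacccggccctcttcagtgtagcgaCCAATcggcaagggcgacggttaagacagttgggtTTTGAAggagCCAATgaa
Birc5: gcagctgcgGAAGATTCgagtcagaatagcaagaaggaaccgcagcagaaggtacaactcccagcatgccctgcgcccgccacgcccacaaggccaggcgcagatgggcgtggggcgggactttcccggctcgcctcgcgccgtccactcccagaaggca
Mki67: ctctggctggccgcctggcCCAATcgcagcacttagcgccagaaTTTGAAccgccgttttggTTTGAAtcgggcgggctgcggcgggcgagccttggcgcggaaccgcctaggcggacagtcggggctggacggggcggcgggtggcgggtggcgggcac
Mcm5: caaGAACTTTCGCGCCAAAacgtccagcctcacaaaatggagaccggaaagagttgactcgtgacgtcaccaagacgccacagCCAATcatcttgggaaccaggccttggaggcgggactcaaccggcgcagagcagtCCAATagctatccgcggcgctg
Mcm6: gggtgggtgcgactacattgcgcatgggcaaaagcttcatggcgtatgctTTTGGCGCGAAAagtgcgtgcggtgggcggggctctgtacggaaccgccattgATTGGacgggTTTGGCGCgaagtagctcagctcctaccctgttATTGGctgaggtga
Fen1: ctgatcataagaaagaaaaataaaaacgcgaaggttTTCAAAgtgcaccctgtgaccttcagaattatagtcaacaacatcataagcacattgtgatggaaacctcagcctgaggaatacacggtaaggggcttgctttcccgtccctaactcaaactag
Rrm2: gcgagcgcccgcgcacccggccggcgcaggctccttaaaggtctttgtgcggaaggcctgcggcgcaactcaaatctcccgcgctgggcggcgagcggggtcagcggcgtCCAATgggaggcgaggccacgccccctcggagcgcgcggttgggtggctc
The CHR letters were found in 14 of the 17 mitosis promoters (82.4%) and in 3 of the 15 S phase promoters (20.0%), against 19.4% of all 27025 promoters of this length and 13.9% of those of tested genes. All 14 of these mitosis promoters also held CCAAT, as did 2 of the S phase promoters with CHR letters. CCAAT alone was counted in 16 of 17 mitosis promoters (94.1%) and 10 of 15 S phase promoters (66.7%), against 37.9% of all promoters. The E2F letters were the reverse, with 8 of 15 S phase promoters (53.3%) and 1 of 17 mitosis promoters (5.88%, the promoter of *Cdk1* above), against 5.27% of all promoters. The heat shock letters were found in 3 of 15 S phase promoters (20.0%) and 3 of 17 mitosis promoters (17.6%), against 7.95% of all promoters. Matches of different motifs overlapped each other in 4 promoters, among them that of *Mcm5*, where the heat shock letters run into the first E2F match. *Birc5* showed none of the CHR, CCAAT or E2F letters in this window, and *Fen1* showed CHR letters alone. For 5 of the 8 genes printed, the RefSeq start lies before the start of the GENCODE gene, by 14 bases for *Birc5*, 18 for *Mki67*, 41 for *Mcm6*, 60 for *Mcm5* and 224 for *Fen1*, so that the window of *Fen1* does not reach the start of that gene in GENCODE.

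Total counts ranged from 2553348 to 12440257 per mouse, and the libraries of mouse 2 of WT day 0 and mouse 2 of *Hsf1* null day 0 were the smallest. Each of the 40 genes had between 6 and 4656 reads in each mouse. Levels are CPM, counts scaled to the library size, on TMM-adjusted library sizes. *Hsf1*, the targeted gene, was between 36.5 and 50.5 CPM in the WT mice and between 9.09 and 14.0 CPM in the null mice, so the label of each library matched its *Hsf1* level, although reads remained on *Hsf1* in the null mice. Epithelial markers (11 genes) summed to between 10900 and 24980 CPM per mouse, and smooth muscle markers (8 genes) to between 2128 and 9860 CPM, so the defining cells of the colon wall were present in each library. Of the 40 genes, none lies on chromosome 15, where *Hsf1* lies. The exons of 12 of them overlap another gene, on the opposite strand in 10, and since the sources used here do not say whether reads were counted by strand, reads of such pairs cannot be told apart. *Pcna*, *Tyms*, *Ccnb1* and *Ccnb2* have annotated pseudogenes that could share their reads.

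Per kilobase of exon, over all 8 mice, the mean level of the 40 genes spanned from 1.18 CPM per kb for *Pola1*, the catalytic subunit of the polymerase that starts each strand, and 1.19 for *Ccne2* to 56.0 for *Ccnb2*. *Ccnb2*, a mitotic cyclin, was followed by the sliding clamp *Pcna* (45.5), the ubiquitin-conjugating enzyme *Ube2c* (44.1), the activator of the anaphase-promoting complex *Cdc20* (32.0) and the proliferation marker *Mki67* (26.6). The lowest levels were mostly of genes of S phase and of checkpoint kinases, with *Cdc6* at 1.84, *Ttk* at 1.93 and *Bub1* at 1.94 CPM per kb. The length used was that of all annotated exons of a gene merged (1531 bases for *Ccnb2* and 8813 for *Pola1*). The order thus depends in part on the annotation.

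**Figure D1:**
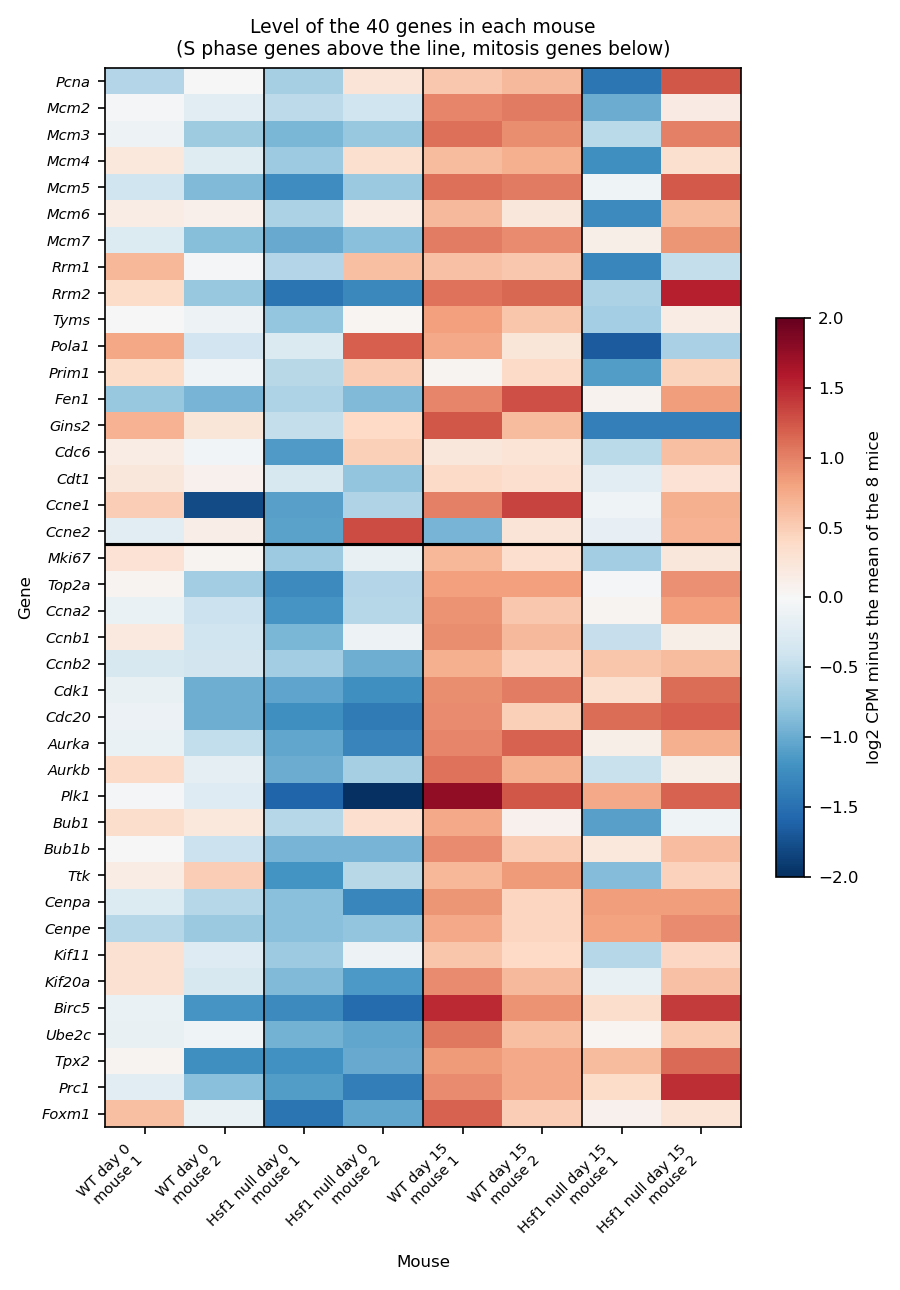
Level of each of the 40 genes in each of the 8 mice, as log2 CPM minus the mean of that gene over the mice (colour scale, blue below and red above the mean), with S phase genes above the line and mitosis genes below. Both WT day 15 mice are red in most rows, both *Hsf1* null day 0 mice are blue in most mitosis rows, and mouse 1 of *Hsf1* null day 15 is below mouse 2 in 17 of 18 S phase rows and all 22 mitosis rows.

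To ask how treatment changed these genes in WT mice, day 15 was compared with day 0. Of the S phase genes, 3 of 18 rose and none fell, and of the mitosis genes, 7 of 22 rose and none fell, where rose means an adjusted p under 0.05 and a log2 fold change above 1 in edgeR's quasi-likelihood test over all tested genes. Of all 14371 tested genes, 7.74% passed the rule, 3.47% as higher and 4.27% as lower at day 15. An unadjusted p under 0.05 from edgeR was found for 5 of 18 S phase and 17 of 22 mitosis genes, against 27.6% of all genes. The median log2 fold change was 0.70 for the S phase genes and 0.98 for the mitosis genes, against 0.00455 for all genes. The fold change was above 0 for 17 of 18 S phase and 22 of 22 mitosis genes, against 50.2% of all genes. The WT mice did not overlap between days, with day 15 higher, for 13 of 18 S phase and 20 of 22 mitosis genes, against 31% of all genes.

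Among the S phase genes, *Fen1*, the flap endonuclease that trims Okazaki fragments, stood at 12.2 and 10.7 CPM at day 0 and at 40.5 and 50.3 CPM at day 15. This was the largest rise among them, with a log2 fold change of 1.98 (SE 0.34, adjusted p = 0.0123 from edgeR), although exons of *Fen1* overlap *Gm10143* and *Tmem258* on the other strand. Subunits of the MCM helicase also rose. *Mcm5* went from 39.5 and 28.2 CPM to 112 and 107 CPM (log2 fold change 1.67, SE 0.40, edgeR adjusted p = 0.0350). *Mcm7*, which hosts *Mir25* and *Mir93* and overlaps *Cops6* and *Ap4m1*, went from 67.5 and 45.3 CPM to 167 and 158 CPM (1.51, SE 0.30, edgeR adjusted p = 0.0209). For both subunits the WT groups stood well apart.

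The other subunits did not pass the test, at log2 fold changes of 1.38 for *Mcm3*, 1.13 for *Mcm2*, 0.66 for *Mcm4* and 0.33 for *Mcm6*. *Mcm2* was at 66.7 and 58.0 CPM at day 0 and at 133 and 140 CPM at day 15 (SE 0.34, edgeR adjusted p = 0.0664), without overlap. *Pcna* was at 62.6 and 94.9 CPM and then at 137 and 149 CPM (0.87, SE 0.65, edgeR adjusted p = 0.420). Here too the day 15 mice were both higher, with a wide spread at day 0. *Rrm2*, the regulated subunit of ribonucleotide reductase, was at 46.5 and 21.4 CPM and then at 76.8 and 80.2 CPM (1.18, SE 0.58, edgeR adjusted p = 0.220). *Ccne1*, a cyclin of the entry into S phase, was at 11.6 and 2.38 CPM and then at 16.4 and 20.8 CPM (1.29, SE 0.58, edgeR adjusted p = 0.182). Its low value in mouse 2 at day 0 comes from the shallowest library. The licensing factor *Cdc6* was at 10.0 and 8.73 CPM and then at 10.6 and 10.9 CPM (0.19, SE 0.55, edgeR adjusted p = 0.856), a difference within its error. The remaining S phase genes that did not pass (*Rrm1*, *Tyms*, *Pola1*, *Prim1*, *Gins2*, *Cdt1* and *Ccne2*) had log2 fold changes from -0.16 to 0.75.

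Among the mitosis genes, *Birc5* (survivin, of the chromosomal passenger complex) stood at 34.3 and 16.7 CPM at day 0 and at 106 and 70.2 CPM at day 15 (1.74, SE 0.43, edgeR adjusted p = 0.0366). *Plk1*, a kinase needed to enter and to complete mitosis, went from 32.8 and 27.8 CPM to 114 and 78.5 CPM (1.66, SE 0.39, edgeR adjusted p = 0.0320). *Cdk1*, the kinase of the mitotic cyclins, went from 48.3 and 27.4 CPM to 102 and 110 CPM (1.45, SE 0.34, edgeR adjusted p = 0.0314). In each of these genes both mice at day 15 were higher than both at day 0. The spindle kinase *Aurka* rose by a log2 fold change of 1.36 (SE 0.31, edgeR adjusted p = 0.0311), the kinetochore motor *Cenpe* by 1.24 (SE 0.26, 0.0245), *Cdc20* by 1.18 (SE 0.31, 0.0461) and the centromeric histone *Cenpa* by 1.08 (SE 0.27, 0.0385).

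Of the mitosis genes that did not pass, *Prc1*, which bundles the microtubules of the midzone, had a log2 fold change of 1.32, the spindle factor *Tpx2* 1.21 and *Top2a* 1.07. *Top2a*, the topoisomerase that untangles sister chromatids, was at 78.8 and 46.8 CPM and then at 133 and 134 CPM (SE 0.37, edgeR adjusted p = 0.0986). *Ccnb2* and *Ube2c* had adjusted p of 0.0356 and 0.0474 from edgeR, but log2 fold changes of 0.93 and 0.97, under the threshold of 1. The cyclin *Ccnb1* was at 34.9 and 23.0 CPM and then at 57.8 and 47.7 CPM (0.85, SE 0.36, edgeR adjusted p = 0.158). *Foxm1*, the transcription factor of the mitosis genes, was at 54.9 and 33.0 CPM and then at 81.6 and 50.7 CPM (0.57, SE 0.33, edgeR adjusted p = 0.293), so that the days overlapped. *Mki67* was at 311 and 264 CPM and then at 405 and 322 CPM (0.34, SE 0.34, edgeR adjusted p = 0.548), without overlap but with a difference about as large as its error. The rest (*Ccna2*, *Aurkb*, *Bub1*, *Bub1b*, *Ttk*, *Kif11* and *Kif20a*) lay between 0.18 and 0.99.

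The count of 10 WT genes depended on single libraries, as did the number of all genes called. Among these libraries were those of *Hsf1* null mice, which share the estimate of the spread. With each mouse left out in turn, the S phase median lay between 0.59 and 0.85 and the mitosis median between 0.80 and 1.18. With DESeq2 the count was 16 (5 S phase and 11 mitosis genes), against 12.1% of all genes. When counts were scaled to the epithelial markers in place of TMM, 0 of the 40 genes rose in WT mice. The median log2 fold change of all genes was then -0.37, relative to which the medians of the S phase and the mitosis genes were 0.68 and 0.98. The share of all genes called was not counted under this scaling.

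The same comparison in *Hsf1* null mice gave 4 of 18 S phase genes and 16 of 22 mitosis genes that rose and 0 that fell, where 11.8% of all tested genes passed, 5.3% as higher and 6.48% as lower at day 15. An unadjusted p under 0.05 from edgeR was found for 7 of 18 S phase and 16 of 22 mitosis genes, against 32.6% of all genes. The median log2 fold change was 1.42 for the mitosis genes and 0.27 for the S phase genes, against 0.05 for all genes, and that of the S phase genes turned to -0.46 when counts were scaled to the epithelial markers (all genes -0.61). With that scaling 0 S phase genes rose and 3 fell (*Gins2*, *Pola1* and *Rrm1*), and 5 mitosis genes rose. The share of all genes called was not counted for it, and the median of all genes was itself lower. These counts are therefore no result about the S phase or mitosis genes. The fold change was above 0 for 21 of 22 mitosis and 12 of 18 S phase genes, against 52.1% of all genes. Mice of the 2 days did not overlap, with day 15 higher, for 17 of 22 mitosis and 7 of 18 S phase genes, against 31% of all genes, and with day 15 lower for 2 S phase genes (*Gins2* and *Pola1*), against 30.3% of all genes.

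*Plk1* had the largest rise. It stood at 10.9 and 3.95 CPM at day 0 and at 56.5 and 75.7 CPM at day 15 (log2 fold change 3.02, SE 0.42, edgeR adjusted p = 0.0123). *Cdc20* went from 20.4 and 18.0 CPM to 104 and 109 CPM (2.46, SE 0.33, edgeR adjusted p = 0.0123). For *Cdc20* the mice of each day lay close together. *Birc5* went from 15.6 and 12.9 CPM to 48.1 and 99.2 CPM (2.35, SE 0.44, edgeR adjusted p = 0.0169), and *Prc1* from 17.7 and 14.7 CPM to 49.5 and 107 CPM (2.25, SE 0.39, edgeR adjusted p = 0.0140). In both, the mice at day 15 lay far apart, yet mouse 1 still exceeded both mice at day 0.

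*Tpx2* went from 19.4 and 22.3 CPM to 69.0 and 97.8 CPM (2.01, SE 0.39, edgeR adjusted p = 0.0175). *Cdk1* went from 25.8 and 23.0 CPM to 67.3 and 116 CPM (1.91, SE 0.34, edgeR adjusted p = 0.0156), and *Cenpa* from 28.5 and 20.5 CPM to 90.7 and 91.1 CPM (1.87, SE 0.28, edgeR adjusted p = 0.0125). The centromere genes *Cenpa* and *Cenpe* were level between the mice at day 15, with *Cenpe* at 48.7 and 53.6 CPM after 15.5 and 16.2 CPM (1.69, SE 0.27, edgeR adjusted p = 0.0134). The other mitosis genes that rose were *Aurka* (1.60), *Foxm1* (1.44), *Top2a* (1.42), *Ccnb2* (1.42), *Bub1b* (1.36), *Ccna2* (1.35), *Ube2c* (1.29) and *Kif20a* (1.26), with adjusted p between 0.0137 and 0.0433 from edgeR. *Foxm1* was at 13.1 and 17.6 CPM at day 0 and at 38.3 and 43.5 CPM at day 15 (SE 0.35), and *Top2a* at 31.3 and 50.3 CPM and then at 73.4 and 142 CPM (SE 0.38).

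*Mki67*, *Ccnb1*, *Aurkb*, *Bub1*, *Ttk* and *Kif11* did not pass the test in *Hsf1* null mice, with log2 fold changes from -0.40 (*Bub1*) to 0.85 (*Ttk*). *Mki67* was at 153 and 230 CPM at day 0 and at 157 and 297 CPM at day 15 (0.25, SE 0.34, edgeR adjusted p = 0.645), so that the mice of the 2 days were interleaved. *Ccnb1* was at 16.2 and 28.4 CPM and then at 22.0 and 32.9 CPM (0.34, SE 0.36, edgeR adjusted p = 0.557), again with overlap. *Mki67*, a widely used marker of dividing cells, thus did not pass the test in either genotype.

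Of the S phase genes in *Hsf1* null mice, *Rrm2* rose from 13.1 and 14.7 CPM to 23.3 and 107 CPM (2.23, SE 0.62, edgeR adjusted p = 0.0424). The mice at day 15 differed from each other more than mouse 1 differed from day 0. *Mcm5* rose from 21.8 and 30.9 CPM to 48.7 and 121 CPM (1.71, SE 0.41, edgeR adjusted p = 0.0287), *Mcm7* from 40.5 and 46.0 CPM to 89.0 and 150 CPM (1.48, SE 0.31, edgeR adjusted p = 0.0209) and *Fen1* from 13.4 and 11.1 CPM to 21.6 and 36.6 CPM (1.23, SE 0.33, edgeR adjusted p = 0.0411). *Mcm5*, *Mcm7* and *Fen1* were also the S phase genes that rose in WT mice. *Pcna* was at 59.8 and 113 CPM at day 0 and at 34.6 and 223 CPM at day 15 (0.59, SE 0.65, edgeR adjusted p = 0.567), the mice at day 15 lying below and above both mice at day 0. *Mcm2* was at 47.1 and 51.4 CPM and then at 34.0 and 76.1 CPM (0.16, SE 0.34, edgeR adjusted p = 0.770), in the same arrangement. *Cdc6* was at 4.11 and 12.6 CPM and then at 6.20 and 13.8 CPM (0.36, SE 0.57, edgeR adjusted p = 0.702), and *Ccne1* at 3.86 and 5.39 CPM and then at 7.76 and 13.4 CPM (1.24, SE 0.62, edgeR adjusted p = 0.193). The lowest log2 fold changes were those of *Pola1* (-1.63, edgeR adjusted p = 0.100), *Gins2* (-1.34, 0.0686) and *Rrm1* (-0.93, 0.157), none of which passed the test in edgeR. DESeq2 called *Gins2* and *Pola1* as lower at day 15, beside 21 of the 40 genes as higher, and 15.3% of all genes in either direction. *Gins2* was also called lower in edgeR without mouse 1 of *Hsf1* null day 0. The other 7 S phase genes (*Mcm3*, *Mcm4*, *Mcm6*, *Tyms*, *Prim1*, *Cdt1* and *Ccne2*) lay between -0.16 and 1.26.

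The number of these 20 genes called depended on single libraries, as did the number of all genes called. Without mouse 2 of *Hsf1* null day 15 the S phase median turned to -0.44. It was 0.81 without mouse 1 of *Hsf1* null day 15, 0.86 without mouse 2 of *Hsf1* null day 0 and -0.03 without mouse 1 of that group. The mitosis median stayed between 1.20 and 1.64 without each mouse in turn.

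**Figure D2:**
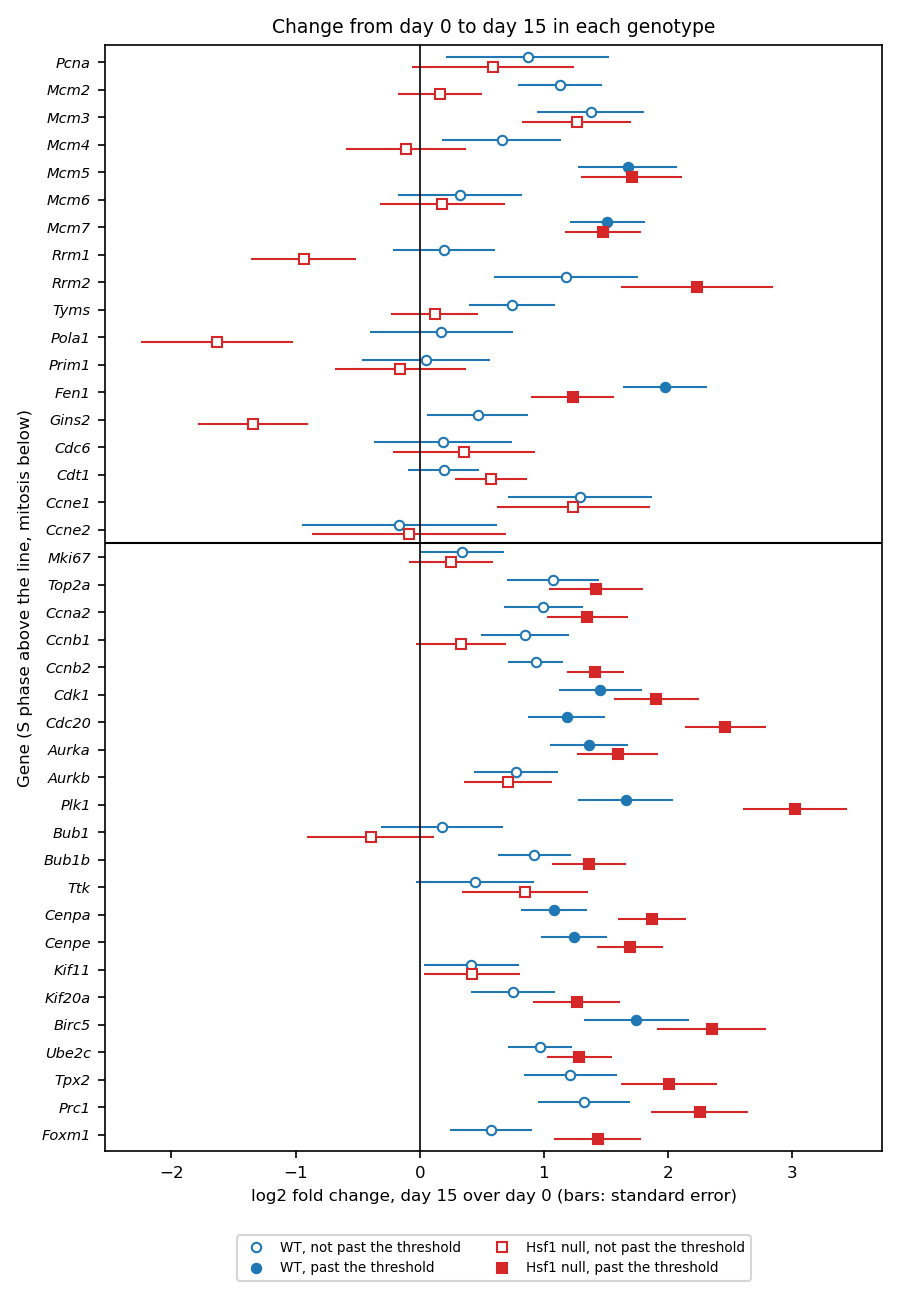
Log2 fold change of day 15 over day 0 for each of the 40 genes (one row each, S phase above the line, mitosis below), with WT as blue circles and *Hsf1* null as red squares, bars giving the standard error and filled symbols the genes past the threshold. Filled symbols all lie to the right of 0, 10 in WT and 20 in *Hsf1* null mice, and the open red squares of *Pola1*, *Gins2* and *Rrm1* lie farthest to the left.

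The sums over the genes show the spread between mice behind these counts. The 18 S phase genes together summed to 712 and 580 CPM at WT day 0, to 417 and 657 CPM at *Hsf1* null day 0, to 1236 and 1194 CPM at WT day 15 and to 439 and 1175 CPM at *Hsf1* null day 15. Mouse 1 of *Hsf1* null day 15 was thus within the range of the day 0 mice, and mouse 2 was next to the WT day 15 mice. The 22 mitosis genes together summed to 1161 and 886 CPM at WT day 0, to 577 and 687 CPM at *Hsf1* null day 0, to 2125 and 1721 CPM at WT day 15 and to 1246 and 1864 CPM at *Hsf1* null day 15. For mitosis, all 4 mice at day 15 were above all 4 mice at day 0. No test was made of these sums, since the genes were chosen with earlier results known, and between 2 groups of 2 mice an exact permutation test cannot reach p under 0.05.

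The ratio of the mitosis to the S phase sum was between 1.05 and 1.72 in 7 mice and 2.84 in mouse 1 of *Hsf1* null day 15. Between the 2 *Hsf1* null day 15 mice, mouse 2 was higher for 17 of 18 S phase genes (median fold 2.05) and for 22 of 22 mitosis genes (median fold 1.50), against 52% of all tested genes. The S phase genes were also uneven in *Hsf1* null day 0, where mouse 2 was higher for 16 of 18 (median fold 1.72), while 12 of 22 mitosis genes were higher in mouse 2 (median fold 1.02). In WT day 0, mouse 1 was higher for 16 of 18 S phase and 20 of 22 mitosis genes, and in WT day 15 for 9 of 18 and 18 of 22. Members of a list therefore often moved together between the mice of a group, though not the S phase genes in WT day 15 or the mitosis genes in *Hsf1* null day 0. The number of genes that passed a test is thus no count of independent observations.

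Per 1000 CPM of the epithelial markers, the mitosis genes summed to 106 and 55.9 CPM at WT day 0, to 32.2 and 57.8 at *Hsf1* null day 0, to 131 and 101 at WT day 15 and to 49.9 and 86.7 at *Hsf1* null day 15. For mitosis the days overlapped in both genotypes on this scale, and the highest 3 values were of WT mice. The S phase genes summed to 65.3 and 36.6 CPM at WT day 0, to 23.3 and 55.3 at *Hsf1* null day 0, to 76.3 and 69.9 at WT day 15 and to 17.6 and 54.6 at *Hsf1* null day 15. The days did not overlap for S phase in WT mice, with day 15 higher, and overlapped in the nulls.

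**Figure D3:**
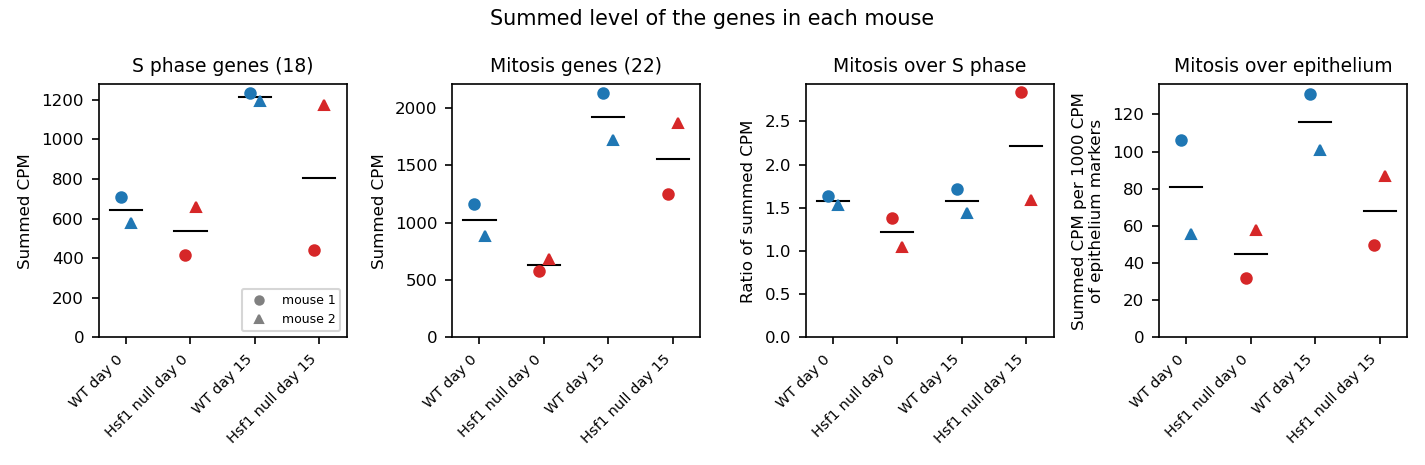
Summed CPM of the 18 S phase genes and of the 22 mitosis genes, the ratio of the mitosis to the S phase sum, and the mitosis sum per 1000 CPM of epithelial markers, for each mouse (circle, mouse 1, and triangle, mouse 2, with WT in blue and *Hsf1* null in red) with the group mean as a line. The mitosis sums at day 15 (1246 to 2125 CPM) lie above those at day 0 (577 to 1161 CPM) in both genotypes, whereas the S phase sum of *Hsf1* null day 15 splits into 439 and 1175 CPM.

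The genotypes were then compared at day 15, where the study asks what loss of *Hsf1* changes in the treated colon. Of the 40 genes, 1 was higher in WT mice (the S phase gene *Gins2*) and 0 were lower, where 3.17% of all tested genes passed, 1.25% as higher and 1.91% as lower in WT. Of the mitosis genes none passed the test in either direction, and 2 of 22 had an unadjusted p under 0.05 from edgeR, as had 5 of 18 S phase genes and 23.2% of all tested genes. With DESeq2, 3 S phase genes (*Gins2*, *Mcm2* and *Rrm1*) and 0 mitosis genes were called, against 8.33% of all genes (1197), so that the share of the 40 was no higher than that of all genes. The median log2 fold change of WT over *Hsf1* null was 0.53 for the S phase and 0.39 for the mitosis genes, against 0.03 for all genes. It was above 0 for 17 of 18 S phase and 17 of 22 mitosis genes, against 52.1% of all genes. Both WT mice were above both *Hsf1* null mice for 10 of 18 S phase and 10 of 22 mitosis genes, against 28.6% of all genes, and below them for 2 mitosis genes (*Cdc20* and *Cenpe*), against 26.3%.

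*Gins2*, a subunit of the GINS complex of the replicative helicase (chromosome 8, 120578633 to 120589304, minus strand, GRCm38), had 24.6 and 16.2 CPM in the WT colons after treatment, against 4.03 and 4.01 CPM in the nulls. The log2 fold change was 2.34 (SE 0.43, edgeR adjusted p = 0.0274). Before treatment it had 16.9 and 12.3 CPM in WT colons, against 7.47 and 13.7 CPM in the nulls, so that the genotypes overlapped. Exons of *Gins2* share 2758 bases with *Gse1* on the other strand, which had 158 and 131 CPM in the treated WT colons, against 293 and 194 CPM in the nulls, lower in WT where *Gins2* was higher, with no call for *Gse1* (log2 fold change -0.75, edgeR adjusted p = 0.224). The call of *Gins2* was lost when only these 2 groups were fitted (0 of the 40 called, and 6 of all genes), and without either mouse of WT day 15, either mouse of *Hsf1* null day 0 or mouse 1 of *Hsf1* null day 15. The number of the 40 genes called at day 15, like that of all genes, depended on the mouse left out. Without mouse 2 of *Hsf1* null day 15 the S phase median was 1.47, against 0.53 with all mice.

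Next in size among the S phase genes were *Pola1* (log2 fold change 1.59, edgeR adjusted p = 0.153), *Rrm1* (1.39, 0.0934) and *Mcm2* (1.31, SE 0.34, 0.0631), none past the threshold. For all 3, both WT mice were above both *Hsf1* null mice. *Mcm5* (0.36, SE 0.39, edgeR adjusted p = 0.607), *Rrm2* (0.27, SE 0.57, 0.813), *Pcna* (0.15, SE 0.64, 0.915) and *Cdc6* (0.10, SE 0.54, 0.935) overlapped between the genotypes. *Ccne1* did not overlap (0.81, SE 0.57, edgeR adjusted p = 0.416), and *Ccne2* was the S phase gene with a value below 0 (-0.56). *Tyms*, *Mcm4*, *Fen1*, *Mcm3*, *Mcm6*, *Mcm7*, *Prim1* and *Cdt1* lay between 0.30 and 0.93.

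Of the mitosis genes, *Aurkb* had the largest log2 fold change (1.04, edgeR adjusted p = 0.111), followed by *Bub1* (0.96, 0.274) and *Ccnb1* (0.94, SE 0.35, 0.151). Both WT mice exceeded both *Hsf1* null mice for these 3. *Mki67* was 0.68 (SE 0.34, edgeR adjusted p = 0.259), *Foxm1* 0.69 (SE 0.33, 0.240) and *Plk1* 0.54 (SE 0.37, 0.405), likewise without overlap, and *Top2a* (0.31, SE 0.37, 0.646) and *Cdk1* (0.20, SE 0.32, 0.752) overlapped. *Cdc20* (-0.43), *Cenpe* (-0.28), *Prc1* (-0.17), *Cenpa* (-0.17) and *Tpx2* (-0.09) had values below 0, none past the test, and *Ccnb2* was level (0.00189, SE 0.22). The other 8 mitosis genes (*Ttk*, *Aurka*, *Ube2c*, *Kif20a*, *Kif11*, *Bub1b*, *Birc5* and *Ccna2*) lay between 0.24 and 0.81. The medians at day 15 rest on mouse 1 of *Hsf1* null day 15, and without it the S phase median was 0.08 and the mitosis median 0.09, against 1.47 and 0.80 without mouse 2.

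At day 0, before any treatment, 0 of the 40 genes passed the test between the genotypes, as did 0% of all tested genes. At an unadjusted p under 0.05 from edgeR, 10 of 22 mitosis genes and 1 of 18 S phase genes were higher in WT mice, and 0 were lower, against 6.29% of all tested genes in either direction. With DESeq2, 1 of the 40 genes (*Plk1*) and 18 of all genes (0.125%) were called. The median log2 fold change of WT over *Hsf1* null was 0.73 for the mitosis genes and 0.31 for the S phase genes, against 0.01 for all genes. It was above 0 for 22 of 22 mitosis and 14 of 18 S phase genes, against 50.8% of all genes, and both WT mice were above both *Hsf1* null mice for 17 of 22 mitosis and 4 of 18 S phase genes, against 18.4% of all genes. For none of the 40 were both WT mice below both null mice, as they were for 18.7% of all genes.

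*Plk1* had 32.8 and 27.8 CPM in the untreated WT colons, against 10.9 and 3.95 CPM in the nulls (1.91, SE 0.41, edgeR adjusted p = 0.775, unadjusted p = 0.000927). *Foxm1* had 54.9 and 33.0 CPM, against 13.1 and 17.6 CPM in the nulls (1.56, SE 0.35, edgeR adjusted p = 0.775, unadjusted p = 0.00131). In both genes the lower WT mouse was well above the higher *Hsf1* null mouse, and both fail the correction over all genes. The remaining unadjusted p under 0.05 among mitosis genes belonged to *Ttk* (1.21), *Kif20a* (1.04), *Aurkb* (0.98), *Aurka* (0.86), *Ube2c* (0.86), *Cdc20* (0.85), *Bub1b* (0.75) and *Cenpa* (0.62), and among S phase genes to *Cdt1* (0.68).

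*Mki67* (0.59, SE 0.34, edgeR adjusted p = 0.815) and *Cdk1* (0.65, SE 0.34, 0.794) did not overlap between the genotypes at day 0, while *Top2a* (0.66, SE 0.38, 0.815) and *Ccnb1* (0.43, SE 0.36, 0.860) did. Of the S phase markers, *Rrm2* was 1.33 (SE 0.61, edgeR adjusted p = 0.794) and *Mcm2* 0.35 (SE 0.34, 0.879), both without overlap. *Ccne1* (0.76, SE 0.62, edgeR adjusted p = 0.856), *Mcm5* (0.40, SE 0.41, 0.885), *Cdc6* (0.27, SE 0.58, 0.954) and *Pcna* (-0.13, SE 0.66, 0.975) overlapped. The other genes lay between -0.48 (*Ccne2*) and 0.86 (*Birc5*). The S phase median at day 0 was 0.02 without mouse 1 and 0.73 without mouse 2 of *Hsf1* null day 0, and 0.12 without mouse 1 of WT day 0, and the mitosis median was 0.45 without mouse 1 of WT day 0.

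**Figure D4:**
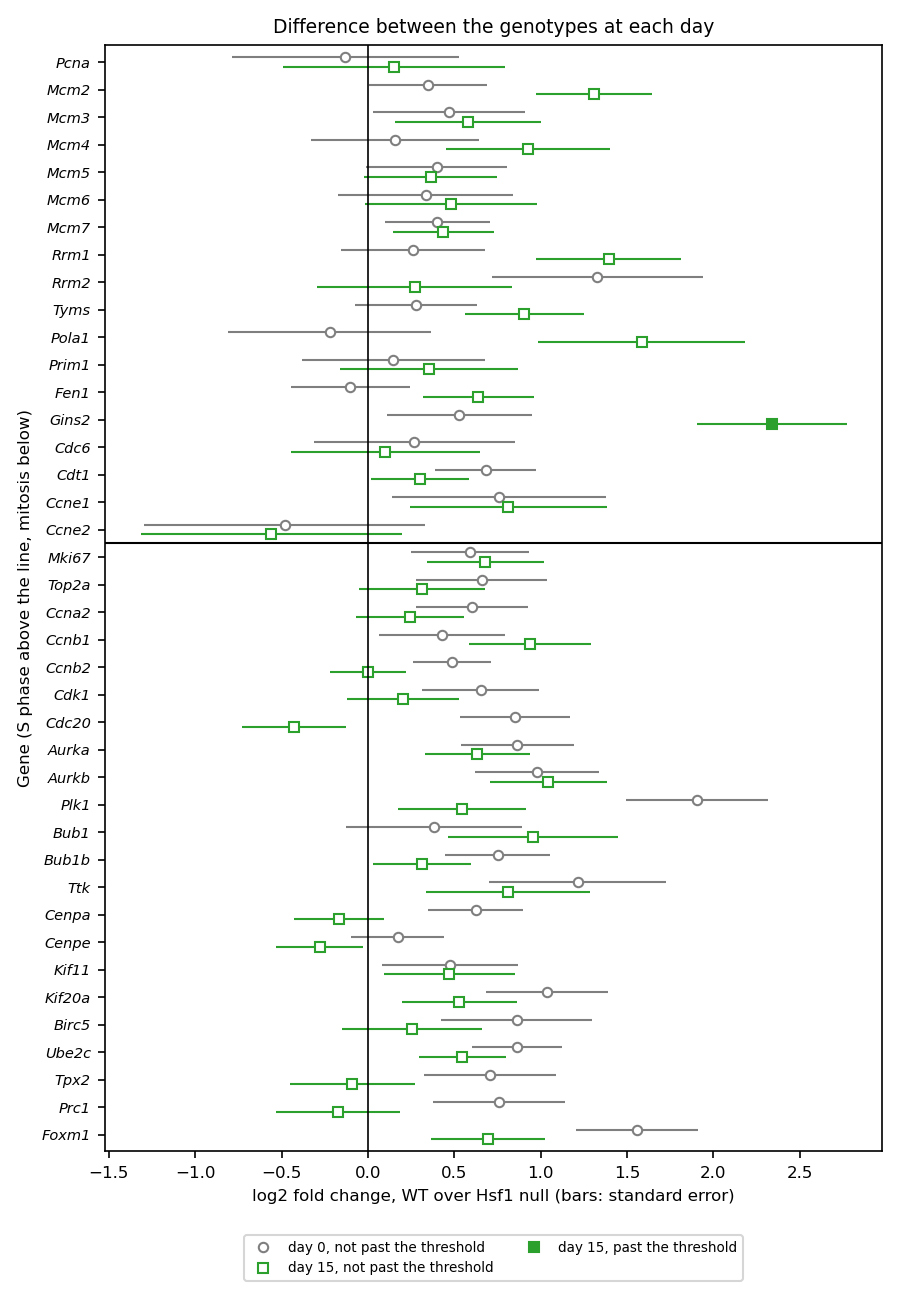
Log2 fold change of WT over *Hsf1* null for each of the 40 genes at day 0 (grey circles) and at day 15 (green squares), with bars giving the standard error and a filled symbol the gene past the threshold. *Gins2* at day 15 is the filled symbol, at 2.34, and at day 0 all 22 mitosis genes lie to the right of 0, with a median of 0.73.

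Whether the change with treatment differed between the genotypes was tested by the interaction of genotype and day, the change in WT minus the change in *Hsf1* null mice. None of the 40 genes passed, as 0.00696% of all tested genes did (1 gene), and 3 had an unadjusted p under 0.05 from edgeR, against 8.62% of all genes. With DESeq2 also 0 of the 40 passed, and 130 of all genes (0.905%). The 3 were *Gins2* (1.81, SE 0.60, edgeR adjusted p = 0.454), *Plk1* (-1.36, SE 0.55, 0.543) and *Cdc20* (-1.28, SE 0.44, 0.475). The median was 0.18 for the S phase genes, 13 of 18 above 0, and -0.44 for the mitosis genes, 4 of 22 above 0, against -0.00344 and 49.8% for all genes. The larger number of mitosis genes that rose in *Hsf1* null mice is therefore not shown to be a difference between the genotypes. Without mouse 2 of *Hsf1* null day 15 the mitosis median was -0.03 and without mouse 1 -0.72, and that of the S phase genes was 1.14 and -0.33. Of the other fixed markers, the interaction was -1.06 for *Rrm2*, 0.96 for *Mcm2*, -0.86 for *Foxm1*, 0.51 for *Ccnb1*, -0.45 for *Cdk1*, -0.35 for *Top2a*, 0.28 for *Pcna*, -0.17 for *Cdc6*, 0.09 for *Mki67*, 0.05 for *Ccne1* and -0.03 for *Mcm5*, with standard errors from 0.47 to 0.92.

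Further genes of the same pathways were counted from lists of other replication genes (45 tested), other mitosis genes (51 of 54 listed genes tested) and regulators of the cell cycle (41 tested). In WT mice, 1 other replication gene rose with treatment, the ligase *Lig1* (log2 fold change 1.11, edgeR adjusted p = 0.0453), and 8 other mitosis genes did, led by *Incenp* (1.78), the cyclin *Ccnf* (1.62), *Iqgap3* (1.61), the kinetochore gene *Spc25* (1.32) and the kinase *Nek2* (1.32), where 3.47% of all tested genes were called higher, more than the share of the other replication genes. In *Hsf1* null mice 5 other replication genes rose, *Mcm10* (2.02), which helps to start the forks, the histone chaperone *Asf1b* (1.72), *Rpa2* (1.40), which coats single strands, and *Lig1* (1.13) among them, and the origin subunit *Orc3* fell (-1.44). Of the other mitosis genes 18 rose in *Hsf1* null mice, led by *Troap* (3.05), the cohesion factor *Cdca5* (2.29), the condensin subunit *Ncapd2* (2.27), *Incenp* (2.08) and *Ccnf* (2.08), and none fell, where 5.3% of all tested genes were called higher and 6.48% lower. The medians were 0.67 and 0.76 for other replication and other mitosis genes in WT mice, and 0.39 and 1.11 in *Hsf1* null mice.

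Among the regulators, *Pkmyt1*, a kinase that inhibits CDK1, and *Fzr1*, an activator of the anaphase-promoting complex, rose in both genotypes (1.56 and 1.11 in WT mice, 1.53 and 1.48 in the nulls). *Rb1*, the retinoblastoma gene, which restrains E2F, fell in both (-1.07 in WT mice, -1.75 in the nulls). *E2f2* rose in WT mice (2.14) and the CDK inhibitor *Cdkn2b* fell (-1.41). In *Hsf1* null mice the CDK1 inhibitor *Wee1* (-1.60) and *Lin54* (-1.45), the subunit of DREAM that binds CHR, fell. In all, 3 of 41 regulators rose and 2 fell in WT mice, against 3.47% and 4.27% of all tested genes, and 4 rose and 3 fell in *Hsf1* null mice, against 5.3% and 6.48%. Between the genotypes at day 15, where 3.17% of all tested genes passed, 1 gene of these 3 lists did, a smaller share, the chromosomal passenger gene *Cdca8*, which had 53.2 and 58.3 CPM in the WT colons, against 22.2 and 23.8 CPM in the nulls (1.28, SE 0.25, edgeR adjusted p = 0.0315), without overlap. At day 0 none of them passed in edgeR, and 6 other replication genes, 18 other mitosis genes and 9 regulators had an unadjusted p under 0.05, against 6.29% of all tested genes. For the interaction these counts were 0, 3 and 2, each a smaller share than the 8.62% of all tested genes, and none passed.

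Markers of cell types moved between the same mice. In WT mice 6 of 8 smooth muscle markers fell with treatment, and their sum was 7207 and 9860 CPM at day 0 and 3678 and 2128 CPM at day 15. Of 8 markers of differentiated colonocytes 3 fell, and their sum went from 3738 and 6477 CPM to 1187 and 2983 CPM. Leukocyte markers (5 genes, of which *Laptm5* rose) summed to 423 and 137 CPM and then to 667 and 1679 CPM, and B cell markers (6 genes, none past the test) to 1955 and 1707 CPM and then to 3251 and 3590 CPM. T cell markers (5 genes tested, of which *Cd3e* rose) summed to 33.2 and 12.7 CPM and then to 75.2 and 120 CPM, and 3 of 8 myeloid markers rose. Endothelial markers (6 genes, none past the test) summed to 148 and 93.3 CPM and then to 296 and 240 CPM. Fibroblast markers (7 genes, none past the test) were at 2515 and 933 CPM and then at 2362 and 2392 CPM. The epithelial markers, of which 0 of 11 passed, were at 10900 and 15858 CPM and then at 16209 and 17088 CPM. Of 9 markers of crypt stem and progenitor cells, which are dividing cells of the crypt, *Lgr5* fell in WT mice (-2.54, edgeR adjusted p = 0.0334). *Lgr5* was low throughout, at 5.68 and 3.57 CPM at day 0 and at 0.87 and 0.74 CPM at day 15. The median of the 9 markers was -0.70, while the S phase and mitosis medians were above 0. The part of these cell types in the changes of the 40 genes was not tested.

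In *Hsf1* null mice, smooth muscle markers summed to 7085 and 6929 CPM at day 0 and to 5320 and 6080 CPM at day 15 (1 of 8 fell), differentiated colonocyte markers to 9608 and 9500 CPM and then to 8247 and 3657 CPM (2 of 8 fell), and epithelial markers to 17900 and 11890 CPM and then to 24980 and 21511 CPM (1 of 11, *Cdx2*, rose). Leukocyte markers summed to 216 and 148 CPM and then to 393 and 567 CPM (1 of 5, *Laptm5*, rose), and T cell markers to 12.4 and 10.4 CPM and then to 30.4 and 58.8 CPM (1 of 5, *Cd3e*, rose), both higher at day 15 as in WT mice. B cell markers summed to 592 and 1425 CPM and then to 231 and 465 CPM, lower at day 15 where the WT sums were higher, and 1 of 6 (*Jchain*) fell. Of 7 fibroblast markers 1 (*Dcn*) fell, and the 6 endothelial markers had a median of -0.94 (none past the test), where the WT median was 0.73. Within *Hsf1* null day 15, mouse 1, with the lower S phase and mitosis levels, had the higher epithelial and differentiated colonocyte sums, and lower sums of fibroblast (445 against 1433 CPM), endothelial (63.3 against 137 CPM), myeloid (275 against 652 CPM) and leukocyte markers (393 against 567 CPM). Crypt stem markers were at 628 and 697 CPM in these mice, after 874 and 956 CPM at day 0, without overlap, with 8 of 9 fold changes below 0 (median -0.42) and none past the test. Between the genotypes at day 15, all 8 myeloid, 7 fibroblast, 6 endothelial, 6 B cell, 5 T cell and 5 leukocyte markers had fold changes above 0 in WT mice, with 2 myeloid, 2 B cell and 1 endothelial gene past the test. In the same comparison 8 of 8 smooth muscle markers (median -0.88, none past the test), 8 of 8 differentiated colonocyte markers (median -1.29, with *Aqp8* and *Slc20a1* called lower in WT), 7 of 9 crypt stem markers (median -0.69, none past the test) and 10 of 11 epithelial markers (median -0.44, none past the test) had fold changes below 0. At day 0, where no marker passed the test, 5 of 5 T cell (median 1.06), 6 of 6 B cell (0.95), 5 of 5 leukocyte (0.82) and 7 of 8 myeloid markers (0.62) had fold changes above 0 in WT mice, and 7 of 8 differentiated colonocyte markers (-0.48) and 7 of 9 crypt stem markers (-0.14) below 0. The other medians at day 0 were 0.46 for fibroblast, 0.18 for smooth muscle, 0.04 for endothelial and -0.08 for epithelial markers. Their part in the levels of the 40 genes was not tested.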

How the data were processed

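RNA of the distal colon was taken from 8 male mice, 2 in each of 4 groups, which were read from the genotype, day and replicate number in the labels. The authors prepared poly(A) libraries with the SENSE mRNA-seq kit and aligned the reads to mm10 with STAR. They deposited raw counts per gene symbol, which are the values used here. The program that counted the reads, its strand setting and the gene annotation are not given in the sources used here. A second deposited table of normalized values was not used. Only genes with at least 6 counts in some sample are listed. The smallest libraries (2553348 and 2675976 counts) give the least precise levels.

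All fits were run in edgeR 4.0.16 under R 4.3.3 (TMM, 1 quasi-likelihood model of the 4 groups on all 8 samples, prior degrees of freedom 5.97). A mean normalized count above 5 was required for testing, which 14371 genes had, with Benjamini-Hochberg adjustment over all of them within each of 5 comparisons. A gene was called where its adjusted p was under 0.05 and its log2 fold change above 1 in size. The fits were checked on simulated data first. Mice of a group are separate animals. Between the mice of each group, 37.4% to 57.6% of genes had an unadjusted p under 0.05 in an exact binomial test of their counts. That test used library totals without TMM factors, so differences in composition can add to these shares. Some genes pass such a threshold by counting error alone.

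The genes and lists were chosen with earlier results of these data known, so no test was made over a list, and list medians are descriptions. Full statistics are given for 12 fixed markers (*Mki67*, *Top2a*, *Pcna*, *Mcm2*, *Mcm5*, *Rrm2*, *Cdc6*, *Ccne1*, *Ccnb1*, *Cdk1*, *Plk1* and *Foxm1*) and, in each comparison, for up to 10 called genes with the largest change. Of the other lists up to 5 called genes are named per comparison, and further genes by value only.

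Positions, overlaps and exon lengths come from GENCODE M21 on GRCm38 (mm10), in which 15276 of 15859 symbols (96.3%) were found, and promoters from RefSeq (GRCm38.p6). The first 40 bases after the RefSeq start were found in a GENCODE transcript of that gene for 22 of the 32 promoters.

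Alternatives tried were DESeq2 1.42.0, DESeq2 size factors, library totals and upper quartile factors, no filter, filterByExpr, an adjusted p under 0.005, no threshold on the fold change, a replicate block, only the groups compared, thinned counts, scaling to epithelial markers and each mouse left out in turn. A block with the WT day 0 mice exchanged was added after the data were seen. Same-numbered mice are different animals and no label says that a number marks a shared litter or batch, so the fits reported have no block.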

Additional observations from a re-analysis of the deposited data

Results flagged for a closer look

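*Cdc20* was marked because the genotypes differed in opposite directions at the 2 days. At day 0 both WT mice (44.2 and 24.2 CPM) were above both *Hsf1* null mice (20.4 and 18.0 CPM), and at day 15 both WT mice (92.1 and 66.2 CPM) were below both *Hsf1* null mice (104 and 109 CPM). The interaction was -1.28 on the log2 scale (SE 0.44, edgeR adjusted p = 0.475, unadjusted p = 0.0156), which does not pass the correction over all genes.

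*Cenpe* was marked for the same reason, having 18.7 and 16.7 CPM in untreated WT colons, against 15.5 and 16.2 CPM in the nulls, and 46.9 and 37.4 CPM in treated WT colons, against 48.7 and 53.6 CPM in the nulls. Its interaction was -0.45 (SE 0.37, edgeR adjusted p = 0.756), a little larger in size than its standard error and not past the test. Of all tested genes, 18.4% had both WT mice above both nulls at day 0, and 26.3% had both WT mice below both nulls at day 15. For the reverse order the shares were 18.7% below at day 0 and 28.6% above at day 15. The share of all genes with opposite differences at both days was not counted. The mark therefore does not set *Cdc20* and *Cenpe* apart from other genes.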

How the results depend on the processing

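Of the counts and medians recomputed under each alternative, 476 stayed within 1.5 times the reported count or within the spread between replicates and 121 moved beyond it. Another 2 turned sign by more than that spread (0.54 for S phase and 0.27 for mitosis medians, log2 scale). Medians that turned sign within the spread are among the 476. Of the values of single genes (the fixed markers and up to 10 called genes per comparison), 1181 kept their direction and side of the threshold, 86 lost the call, 12 gained it and 41 turned sign. Single genes were not counted under the epithelial scaling or the changed thresholds, so calls lost there are not among the 86. The causes of these changes were not tested unless stated.

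With DESeq2, the genes called among the 40 were 3 between the genotypes at day 15 (3 S phase), 1 at day 0 (1 mitosis), 16 in WT mice over time (5 S phase, 11 mitosis) and 7 S phase genes in *Hsf1* null mice (5 higher and 2 lower), and all genes called were 1197, 18 and 1737 in the first 3 of these comparisons and 130 for the interaction. At an adjusted p under 0.005, 0 of the 40 were called in any comparison (S phase 0, mitosis 0), and 0, 12, 0 and 0 of all genes for the genotypes at day 15, WT over time, *Hsf1* null over time and the interaction. With only the groups compared, 0 of the 40 (S phase 0) and 6 of all genes were called between the genotypes at day 15, and 5 S phase genes in WT mice over time, from fewer samples. With library totals, 2 S phase genes rose in *Hsf1* null mice, and all genes called for the interaction were 2, as without a filter on low counts (2), with 3 on thinned counts. Scaled to the epithelial markers, 2 of the 40 (2 S phase) differed at day 15, 0 were called in WT over time (S phase 0, mitosis 0) and 8 in *Hsf1* null mice (5 mitosis genes, which rose, and 3 S phase genes, which fell). The mitosis medians were then 0.85 between the genotypes at day 15, 0.61 in WT and 0.72 in *Hsf1* null mice over time and -0.17 for the interaction, and the S phase median in *Hsf1* null mice turned to -0.46. Under this scaling the median of all genes was 0.51, -0.37, -0.61 and 0.28 in these comparisons, since the epithelial markers differed between the groups. The share of all genes called was not counted under it. With library totals the median of all genes was 0.18 for the genotypes at day 15.

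With the replicate number as a block, 2 S phase genes rose in *Hsf1* null mice (17 of the 40 in place of 20) and 9 of the 40 in WT mice, and 2 of all genes passed for the interaction. Deviations of same-numbered mice correlated at 0.11 to 0.15 between the 3 groups other than WT day 0, and WT day 0 correlated with them at 0.04, -0.29 and -0.26, so the numbers were not taken to pair the mice. With the WT day 0 mice exchanged in the block, 3 of the 40 (3 S phase) and 1314 of all genes were called at day 15, 16 of the 40 (5 S phase, 11 mitosis) and 1856 of all genes in WT over time, and 54 of all genes for the interaction.

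Leaving out each mouse in turn, where the lone mouse is assumed to vary like the other groups, gave 0 to 6 of the 40 genes (S phase 0 to 6) and 12 to 873 of all genes between the genotypes at day 15, 0 to 17 of all genes at day 0, 0 to 14 of the 40 (S phase 0 to 5, mitosis 0 to 9) and 92 to 1336 of all genes in WT over time, 0 to 20 of the 40 (S phase 0 to 5, mitosis 0 to 15) and 0 to 1891 of all genes in *Hsf1* null mice over time, and 0 to 50 of all genes for the interaction. The S phase median ranged from 0.0832 to 1.47 between the genotypes at day 15, from -0.44 to 0.86 in *Hsf1* null mice over time and from -0.33 to 1.14 for the interaction. The mitosis median ranged from 0.45 to 0.96 at day 0, from 0.0852 to 0.80 at day 15 and from -0.72 to -0.0304 for the interaction.

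Of the 40 genes, the sign of 15 between the genotypes at day 15, 13 at day 0, 5 in WT and 12 in *Hsf1* null mice over time and 20 for the interaction turned when some mouse was left out, and 0 of these were called in the reported fit. Ranges are given for the 12 fixed markers. Between the genotypes at day 15 they were *Cdc6* (-0.37 to 0.79), *Cdk1* (-0.15 to 0.65), *Mcm5* (-0.16 to 1.17), *Pcna* (-0.65 to 2.04), *Rrm2* (-0.45 to 1.75) and *Top2a* (-0.10 to 0.87), and the others that turned were *Mcm3*, *Mcm6*, *Prim1*, *Ccna2*, *Ccnb2*, *Cenpa*, *Birc5*, *Tpx2* and *Prc1*. At day 0 they were *Ccne1* (-0.91 to 1.35), *Cdc6* (-0.41 to 1.20) and *Pcna* (-0.53 to 0.39, and 0.0180 with the exchanged block), and the others were *Mcm4*, *Mcm6*, *Rrm1*, *Tyms*, *Pola1*, *Prim1*, *Fen1*, *Ccne2*, *Bub1* and *Tpx2*. In WT mice over time none of the fixed markers turned, and *Rrm1*, *Pola1*, *Prim1*, *Ccne2* and *Bub1* did. In *Hsf1* null mice over time they were *Ccnb1* (-0.0481 to 0.76), *Cdc6* (-0.33 to 1.28), *Mcm2* (-0.53 to 0.63), *Mki67* (-0.28 to 0.64) and *Pcna* (-1.31 to 1.39), and the others were *Mcm4*, *Mcm6*, *Tyms*, *Prim1*, *Ccne2*, *Bub1* and *Kif11*. For the interaction they were *Ccne1* (-0.55 to 1.72), *Cdc6* (-1.10 to 0.52), *Cdk1* (-0.79 to 0.0404), *Mki67* (-0.30 to 0.62), *Pcna* (-0.51 to 2.18), *Rrm2* (-1.77 to 0.42), *Top2a* (-0.75 to 0.20) and *Mcm5* (-0.55 to 0.77), which also turned with DESeq2 (0.00268), library totals (0.0313), the exchanged block (0.13) and thinned counts (0.18). The others for the interaction were *Mcm3*, *Mcm6*, *Mcm7*, *Prim1*, *Ccne2*, *Ccna2*, *Aurka*, *Aurkb*, *Ttk*, *Kif11*, *Birc5* and *Tpx2*.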
